A study of Mus musculus with 24 samples.

Results

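The genes described here encode 10 neuropeptide precursors known from the retina: Vip, Gcg, Npy, Tac1, Sst, Penk, Cartpt, Nts, Crh and Cck. They were taken by gene symbol from a table of 28802 genes, and all 10 were found. RNA was sequenced from the retina of mice of 8 inbred strains, with 3 libraries per strain and 24 libraries in all. The question was how the level of each gene varied with genetic background, and whether it followed the susceptibility of the strains to form-deprivation myopia, the eye elongation and shift in refraction that follow the loss of patterned vision. The strains were 129S1/Svlmj, C57BL/6J, NOD/ShiLtJ, A/J, PWK/PhJ, WSB/EiJ, NZO/HlLtJ and CAST/EiJ. Every mouse was wild type and at postnatal day 28, and the labels name no treatment of any group. PWK/PhJ, WSB/EiJ and CAST/EiJ are wild-derived strains and the other 5 are classical laboratory strains. In order of increasing myopia the strains were NZO/HlLtJ, NOD/ShiLtJ, A/J, C57BL/6J, 129S1/Svlmj, PWK/PhJ, WSB/EiJ and CAST/EiJ, so the wild-derived strains held the 3 highest places. The myopia was measured at a later age than that of the sequenced retinae, and so in other mice, with 1 mean per strain.

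Neuropeptides are cut from larger precursors inside dense-core granules and act on G protein-coupled receptors, usually more slowly than fast transmitters. In the retina they are made mainly by sparse classes of amacrine cells, interneurons of the inner retina that also release GABA or glycine. Vasoactive intestinal peptide and the peptides of the glucagon gene are of long standing interest in eye growth, because their retinal levels respond to visual blur in animal models.

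Levels were given as cpm, reads per 1000000 reads of the library's total. The value of 1 read in each library put the totals between 57623000 and 78112000 reads (median 68914500), and 3 reads, taken as the floor of detection, corresponded to 0.0384 to 0.0521 cpm. Such floors cover counting error only. A mean of at least 0.5 cpm was required for testing and left 16400 genes, 7 of them members: Vip, Npy, Tac1, Sst, Penk, Cartpt and Cck. Sst passed through PWK/PhJ, since its mean without that strain was 0.472 cpm, so its difference between strains was partly fixed by the filter. The F-test counts, the called pairs and the median range of the members are therefore also given without Sst, which was decided once the data had been seen. Gcg, Nts and Crh stayed below it.

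All 7 tested members differed between strains by limma's moderated F-test at a q-value under 0.01, as did 97.2% of all genes tested. That limit was a loose one, because the estimated share of genes without a difference was 2.08% and the limit reached p-values of up to 0.466. With a Benjamini-Hochberg adjusted p under 0.05 the count was again 7 of 7, against 82.1% of all genes. Without Sst both counts were 6 of 6. The count therefore says little about the members, and the sizes of the differences say more. The median range between the highest and lowest strain was 0.66 on the log2(cpm + 1) scale over the 7 members, 1.04 over the 6 without Sst and 0.43 over all genes tested. A range above 1 was found for 3 of the 7 (Vip, Penk and Cck) and for 11.6% of all genes. Over the 28 pairs of strains, 122 of 196 comparisons of the members passed an adjusted p under 0.05, or 62.2%, beside 35.5% of all comparisons of all genes. Without Sst it was 104 of 168 (61.9%). These libraries hold whole retina, so fewer cells of a type and less RNA per cell cannot be told apart. Reads of every strain were aligned to 1 reference genome, so a difference in alignment between strains and a difference in RNA cannot be told apart either.

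**Figure D1:**
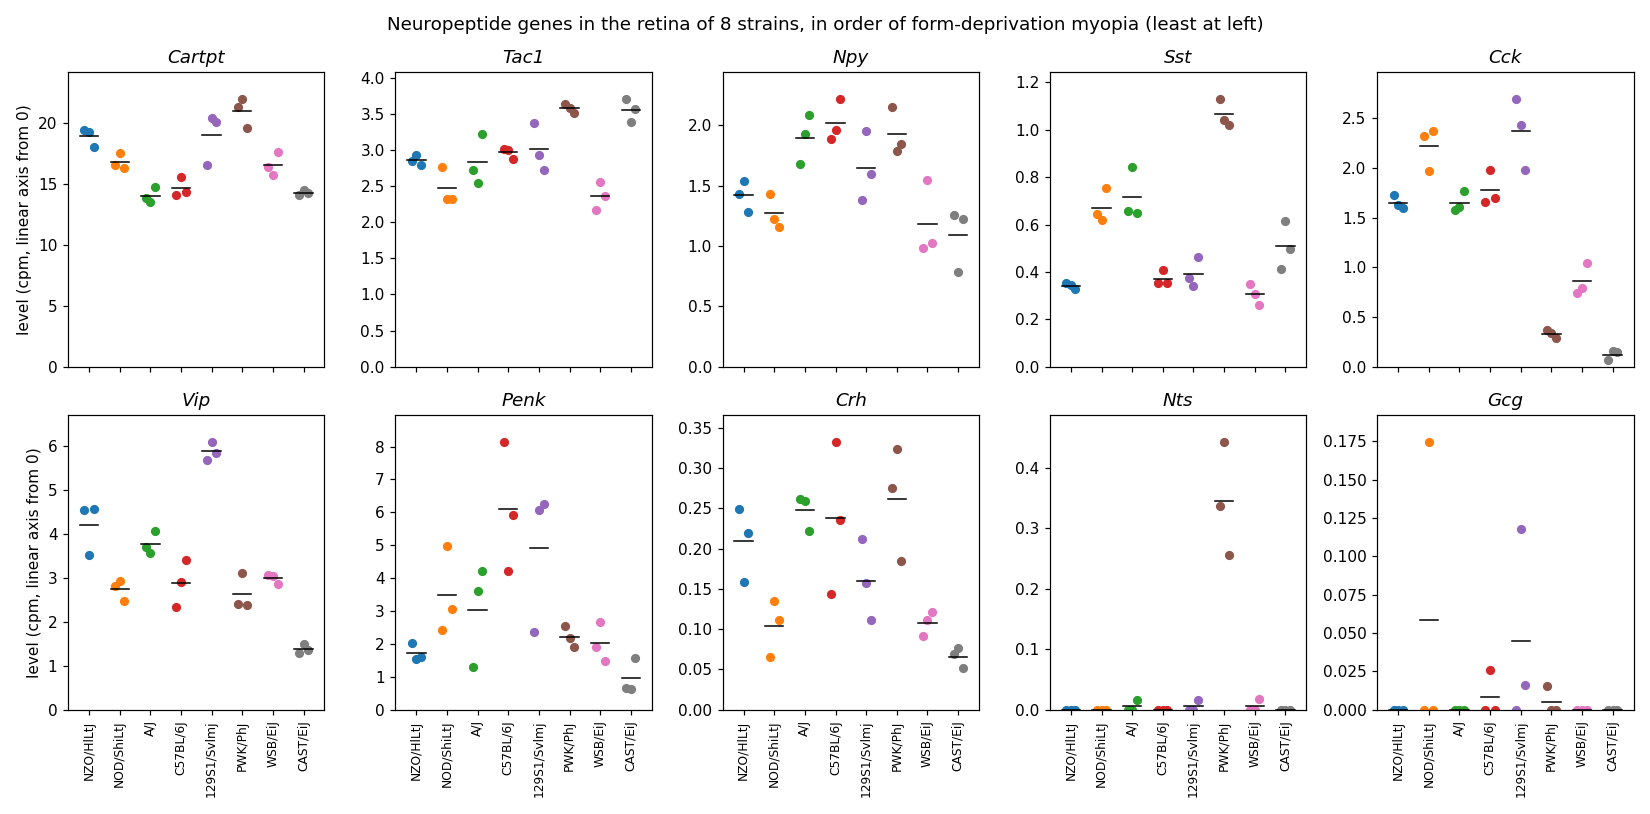
Level of each of the 10 genes in cpm (linear axis from 0, a different scale in each panel) in the 24 libraries, with strains on the horizontal axis in order of increasing form-deprivation myopia. Points are libraries and bars are means of 3; Cck lay at 1.04 cpm or less in every library of PWK/PhJ, WSB/EiJ and CAST/EiJ and at 1.57 cpm or more in every other library.

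Vip encodes vasoactive intestinal peptide, the product of a class of GABAergic amacrine cells (chromosome 10, 5639218 to 5647617, plus strand, GRCm38). In CAST/EiJ its 3 libraries were at 1.29, 1.49 and 1.37 cpm, and in 129S1/Svlmj at 5.69, 6.11 and 5.86 cpm. Both strains were separated from all others without overlap, CAST/EiJ at the bottom and 129S1/Svlmj at the top. The means were 1.38 ± 0.101 cpm and 5.88 ± 0.211 cpm (SD, n = 3), a ratio of 4.26, and the contrast in limma was 1.53 ± 0.095 (SE) on the log2(cpm + 1) scale with an adjusted p of 9.48e-12. Between them stood PWK/PhJ at 2.64 ± 0.417, NOD/ShiLtJ at 2.75 ± 0.238, C57BL/6J at 2.88 ± 0.534 and WSB/EiJ at 2.99 ± 0.113 cpm. No neighbours among these 4 strains differed beyond their spread (adjusted p from 0.737 to 0.768 in limma). A/J followed at 3.77 ± 0.261 and NZO/HlLtJ at 4.22 ± 0.590 cpm, a step that was not called (adjusted p = 0.346, limma). Differences between strains accounted for 94.7% of the variance of Vip over the 24 libraries.

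Gcg encodes proglucagon, from which glucagon and the glucagon-like peptides are cut (chromosome 2, 62474530 to 62483650, minus strand). It was listed at 0 in 19 libraries and held no more than 3 reads in 22. The exceptions were 1 library of 129S1/Svlmj at 0.118 cpm and 1 library of NOD/ShiLtJ at 0.175 cpm, whose fellow replicates lay at or below the floor. Without the filter its moderated F was 1.09, the lowest of the 10 genes, and none of its 28 pairs of strains was called. A difference between strains in Gcg was not detectable at this depth.

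Cck encodes cholecystokinin, a peptide of amacrine cells in the retina (chromosome 9, 121489824 to 121495694, minus strand). It had the largest moderated F of the members, 117, and 98.2% of its variance lay between strains. The libraries of CAST/EiJ were at 0.0686, 0.154 and 0.144 cpm, those of PWK/PhJ at 0.367, 0.341 and 0.284 cpm, and those of WSB/EiJ at 0.743, 0.794 and 1.04 cpm. All 9 libraries of the wild-derived strains lay below all 15 libraries of the classical strains, and the 3 wild-derived strains did not overlap each other. The lowest classical mean was 1.65 ± 0.107 cpm in A/J, close to NZO/HlLtJ at 1.65 ± 0.0678 and C57BL/6J at 1.78 ± 0.176 cpm, and no step among these was called. NOD/ShiLtJ reached 2.22 ± 0.217 and 129S1/Svlmj 2.37 ± 0.364 cpm, with no call between them (adjusted p = 0.585, limma). From CAST/EiJ, at 0.122 ± 0.0467 cpm (SD, n = 3), to 129S1/Svlmj the ratio of means was 19.4, and the contrast was 1.58 ± 0.078 (SE) on the log2(cpm + 1) scale, which understates the change of so low a level (adjusted p = 1.16e-13, limma). The mean of CAST/EiJ corresponded to 9.33 reads per library. Of the 28 pairs of strains, 24 were called for Cck, the most of any member, beside a median of 10 over all genes tested.

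Npy, Tac1 and Sst encode neuropeptide Y, the substance P precursor and somatostatin, each a marker of its own amacrine cell populations. Their strain means differed less than those of Vip and Cck. Npy (chromosome 6, 49822710 to 49829507, plus strand) ran from 1.09 ± 0.267 cpm in CAST/EiJ to 2.02 ± 0.177 cpm in C57BL/6J, and every pair of neighbours in its order overlapped. The contrast of those extremes was called (0.54 ± 0.10 SE on the log2 scale, adjusted p = 0.000227, limma). Tac1 (chromosome 6, 7554879 to 7565834, plus strand) formed an upper pair of strains, PWK/PhJ at 3.58 ± 0.0588 and CAST/EiJ at 3.56 ± 0.163 cpm, whose libraries were all above those of the other 6 strains. The others ran from 2.36 ± 0.197 cpm in WSB/EiJ to 3.02 ± 0.333 cpm in 129S1/Svlmj. CAST/EiJ, lowest of the strains in Vip, Cck and Npy, was thus near the top in Tac1. Without the wild-derived strains the strain difference of Tac1 fell to a range of 0.21 on the log2 scale and no longer passed (q = 0.0283, limma).

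Sst (chromosome 16, 23889573 to 23890958, minus strand) was at 1.13, 1.04 and 1.02 cpm in PWK/PhJ, above every other library. A/J at 0.715 ± 0.110 and NOD/ShiLtJ at 0.672 ± 0.0720 cpm came next and overlapped. CAST/EiJ was at 0.508 ± 0.103 cpm, and the remaining strains lay between 0.305 ± 0.0441 cpm in WSB/EiJ and 0.393 ± 0.0632 cpm in 129S1/Svlmj. PWK/PhJ exceeded WSB/EiJ by a ratio of 3.49. The range was 0.66 on the log2(cpm + 1) scale, which understates the change of so low a level. With a pseudocount of 0.1 it was 1.53, and that of Vip was 2.01. Since PWK/PhJ is the strain that brought Sst past the filter, its contrast with A/J is given from the fit without the filter, 0.27 ± 0.054 (SE) on the log2 scale (adjusted p = 0.000602, limma).

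Penk encodes proenkephalin, the source of the enkephalins, opioid peptides (chromosome 4, 4133531 to 4138819, minus strand). Its means ran from 0.960 ± 0.525 cpm in CAST/EiJ to 6.10 ± 1.97 cpm in C57BL/6J (SD, n = 3), and the contrast of these strains was 1.85 ± 0.29 (SE) on the log2 scale (adjusted p = 2.67e-05, limma). Penk also varied widely within strains. In 129S1/Svlmj the libraries were at 2.37, 6.08 and 6.26 cpm, in A/J at 1.28, 3.59 and 4.22 cpm, and in CAST/EiJ at 0.672, 0.642 and 1.57 cpm. The coefficient of variation within a strain went from 14.1% to 54.7% with a median of 35.2%, while the medians of the other 6 tested members were between 5.01% and 12.6%. Every pair of neighbours in the order of strains overlapped and none was called. In all 11 of 28 pairs of strains were called, the fewest of the tested members, beside a median of 10 over all genes tested. Of the exon bases of Penk, 14.3% overlap the gene A830012C17Rik, and reads from that stretch may be divided between the genes.

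The genes most like Penk over the 24 libraries were Fbn1 (r = 0.940 on the log2(cpm + 1) scale) and Ltbp1 (r = 0.919), which encode fibrillin 1 and a latent TGF-beta binding protein of the extracellular matrix. The likeness held within strains, where the deviations of Penk from its strain means had r = 0.909 with those of Fbn1 and r = 0.892 with those of Ltbp1. In the 129S1/Svlmj library with the low Penk value Fbn1 was at 8.71 cpm, against 24.1 and 27.7 cpm in its fellow replicates. The low A/J library had 8.89 cpm of Fbn1, against 22.0 and 24.1 cpm. Within strains 40 of the genes tested had r above 0.8 with Penk. These were looked at after the spread of Penk had been seen, and the part of the tissue or handling behind them in the differences between strains was not tested.

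**Figure D2:**
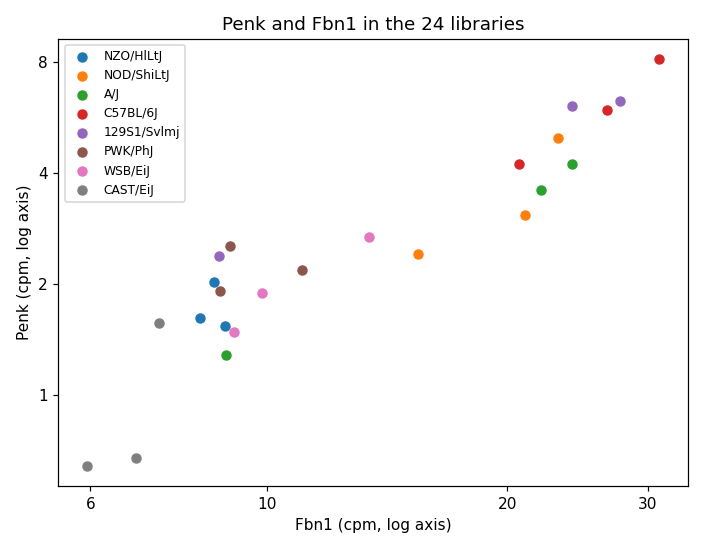
Level of Penk against level of Fbn1, both in cpm on log axes, in the 24 libraries; each point is a library and colours are strains. The libraries of 129S1/Svlmj and A/J lay in separate places along the trend, with 1 library of each at a Fbn1 level below 9 cpm and the others above 20 cpm.

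Cartpt encodes the precursor of cocaine- and amphetamine-regulated transcript peptides, found in a subset of retinal ganglion cells (chromosome 13, 99898489 to 99901091, minus strand). It was the most abundant member per length of exon, at 13.2 cpm per kilobase, followed by Npy at 2.75 and Penk at 1.87 cpm per kilobase. Strain means ran from 14.0 ± 0.641 cpm in A/J to 20.9 ± 1.26 cpm in PWK/PhJ, a ratio of 1.49. Of 28 pairs of strains 18 were called, beside a median of 10 over all genes tested. A/J, CAST/EiJ at 14.3 ± 0.238 and C57BL/6J at 14.6 ± 0.795 cpm formed a lower group with no call between neighbours. No step between neighbours in its order of strains was called.

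Nts encodes neurotensin (chromosome 10, 102481756 to 102490486, minus strand). PWK/PhJ held it at 0.336, 0.444 and 0.256 cpm, while the other 21 libraries had 3 reads or fewer each and 18 of them were listed at 0. In total 66 reads were counted in the 3 libraries of PWK/PhJ and 3 reads in the other 21, a ratio of rates of 164 with an exact 95% interval of 53.7 to 815 that covers counting error only. Without the filter on low values all 7 pairs that include PWK/PhJ were called and no other pair was. No share of all genes is given for that fit.

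Crh encodes corticotropin-releasing hormone (chromosome 3, 19693401 to 19695396, minus strand). It was above the floor in every library but low, from 0.0660 ± 0.0126 cpm in CAST/EiJ to 0.261 ± 0.0708 cpm in PWK/PhJ, and neighbours in the order of strains overlapped throughout. Without the filter 11 of its 28 pairs were called, at 5.00 to 16.7 reads per library in the strain means. In the fit with the filter the median over all genes tested was 10 pairs, and the share without the filter is not given. The count therefore says little about Crh.

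On the regression against form-deprivation myopia over the 24 libraries, 1 of 7 tested members passed a q-value under 0.01, Cck, and its slope was negative. Of all genes tested 10.9% passed in either direction and 6.97% with a negative slope, so 1 of 7 is near the background. The slope of Cck was -0.10 ± 0.024 (SE) on the log2(cpm + 1) scale per diopter (q = 0.00224, limma): the level was lower in strains with more myopia. Vip had a slope of -0.068 ± 0.020 (SE) and fell just short (q = 0.0110, limma). It passed by a Benjamini-Hochberg adjusted p under 0.05 (0.0211), which made the count 2 of 7, against 17.6% of all genes in either direction and 10.9% with a negative slope. For the other 5 members the q-value was between 0.113 and 0.361, with negative slopes for Npy, Penk and Cartpt and positive ones for Tac1 and Sst.

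The 3 libraries of a strain share 1 value of myopia, and with strain means as the unit no gene passed: 0% of the 16400 tested, and 0 of 7 members, had a q-value under 0.01 in limma. At an unadjusted p under 0.05 there were 1446 genes, Cck the only member among them. Correlations were computed for 8 genes, the tested members and Crh, over the 8 strains. Cck had Pearson's r = -0.670 (exact permutation p = 0.0659) and a Spearman rank correlation of -0.619 (exact permutation p = 0.115), with q = 0.453 over all genes. Vip had r = -0.581 (exact permutation p = 0.115) and a rank correlation of -0.476 (exact permutation p = 0.243), with q = 0.479 over all genes. In the other 6 genes r lay between -0.468 and 0.400, with exact permutation p from 0.255 to 0.735. Without NZO/HlLtJ and CAST/EiJ, the strains farthest from the median myopia, r was -0.674 for Cck and 0.078 for Vip, so the relation of Vip rested on those strains. The sign of r also turned there for Cartpt, from -0.299 to 0.512, and for Sst, from 0.141 to -0.185. Without CAST/EiJ alone r was -0.415 for Cck and -0.215 for Vip. With strain as a random effect the slope of Cck stayed at -0.10 but no longer passed (q = 0.0225, limma), where 0.713% of all genes did, and neither did it without CAST/EiJ (slope -0.063, q = 0.133).

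Over the 5 classical strains alone the sign turned. Without CAST/EiJ, PWK/PhJ and WSB/EiJ the slope of Cck was 0.028 per diopter (q = 0.249, limma) and that of Vip 0.011 (q = 0.659, limma). The 3 wild-derived strains were also the 3 most myopic, so descent and myopia cannot be told apart as correlates of the low Cck.

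Of the 28 receptor genes of the members, 12 passed the filter. All 12 passed the F-test, also by the adjusted p, against 97.2% and 82.1% of all genes. The median range was 0.55 on the log2 scale (0.43 over all genes), and 163 of 336 comparisons of strain pairs were called (48.5%, against 35.5% over all genes). Cckbr, the gastrin and cholecystokinin B receptor, had the largest F, 116, with 0.532 ± 0.0430 cpm in CAST/EiJ and 5.43 ± 0.324 cpm in WSB/EiJ. CAST/EiJ was thus the lowest strain for both Cck and this receptor, but WSB/EiJ, which had little Cck, had the most Cckbr. Tacr3, the neurokinin B receptor, ran from 5.12 ± 0.310 cpm in CAST/EiJ to 10.5 ± 0.539 cpm in 129S1/Svlmj (F = 42.4). Glp2r, the receptor of glucagon-like peptide 2, ran from 0.225 ± 0.0460 cpm in CAST/EiJ to 1.28 ± 0.310 cpm in 129S1/Svlmj (F = 25.7), although Gcg was near or at 0 in both.

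Vipr2, a receptor of Vip, was also lowest in CAST/EiJ, at 10.3 ± 0.233 cpm, and highest in 129S1/Svlmj, at 15.8 ± 0.344 cpm, the same extremes as Vip itself. Vipr1 stayed below the filter, at 0.136 ± 0.0240 cpm in CAST/EiJ and 0.541 ± 0.111 cpm in PWK/PhJ. With myopia, 2 of the 12 receptors had a positive slope past the limit and 1 a negative one, where 10.9% of all genes passed in either direction and 6.97% with a negative slope. The positive ones were Npy1r (0.052 ± 0.0091 SE, q = 0.000387, limma) and Adcyap1r1, the receptor of the Vip relative PACAP (0.027 ± 0.0078 SE, q = 0.00998, limma). The negative one was Tacr3 (-0.056 ± 0.014 SE, q = 0.00321, limma). None of the 3 passed over strain means, with q between 0.453 and 0.461. Of the other tested receptors, Tacr1, Sstr2, Oprm1, Sort1, Crhr1 and Crhr2 had strain means from 0.349 cpm for Crhr2 in PWK/PhJ to 64.8 cpm for Sort1 in the same strain. The other 16 receptors, among them Glp1r, Gcgr, Npy2r, Sstr1 and Cckar, had means below 0.5 cpm.

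Of 13 genes for processing enzymes of the peptides 12 were tested. All 12 passed the F-test at the loose q-value and 10 by the adjusted p, close to the shares of all genes tested (97.2% and 82.1%). Qpct, which closes amino-terminal glutamine into a ring, ran from 12.0 ± 1.12 cpm in PWK/PhJ to 27.7 ± 1.44 cpm in WSB/EiJ (F = 68.7). Scg5, the chaperone of proprotein convertase 2, was lowest in 129S1/Svlmj at 36.6 ± 1.70 cpm (F = 67.0), the strain with the most Vip and Cck. Pcsk2, the convertase itself, had F = 15.2. No enzyme passed the limit on myopia, where 10.9% of all genes did.

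All 12 granule proteins were tested and passed by the adjusted p, as did 82.1% of all genes, led by Scg2 (F = 32.6), Cadps2 (F = 27.7) and Syt4 (F = 23.7). Cadps, a priming factor of granule release, was the only one past the limit on myopia, with a slope of -0.014 ± 0.0033 SE (q = 0.00255, limma). Of all genes 10.9% passed in either direction and 6.97% with a negative slope, so 1 of 12 is near the background. Over strain means Cadps did not pass (q = 0.463, limma). Of 12 peptidases 11 were tested and all 11 passed the adjusted p, led by Enpep (F = 59.1), Dpp4 (F = 17.7) and Nln (F = 10.3), and none passed on myopia. Of 45 other neuropeptide genes 32 were looked at here and 7 reached the filter, all 7 with a strain difference by the adjusted p, led by Tac2 (F = 12.8), Pdyn (F = 11.6) and Npff (F = 6.99). Of these 7, Nmb and Edn1 passed the filter through CAST/EiJ, with means of 0.494 and 0.492 cpm without it, so their differences between strains were partly fixed by the filter. The 7 genes had 35.7% of their pairs of strains called, and the 5 without Nmb and Edn1, left out once the data had been seen, 41.4% (58 of 140), against 35.5% over all genes.

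Likeness to other genes over the 24 libraries held within strains to different degrees for the other tested members. Cck was most like Lair1 (r = 0.975 over 24 libraries) and Katnal2 (r = 0.968), with r of 0.197 and 0.193 within strains. For Sst the closest were Ctnnal1 and Polr3b (both r = 0.926; within strains -0.0545 and -0.0120), and for Vip they were Dpy19l1 (r = 0.890; within strains 0.398) and Ywhah (r = 0.877; within strains 0.306). Npy was closest to Gm48237 (r = 0.850; within strains 0.392) and Ctsc (r = 0.846; within strains 0.474). Tac1 was closest to Gm38380 (r = 0.874; within strains 0.506) and Hspa13 (r = 0.851; within strains 0.670), and Cartpt to Klhdc1 (r = 0.859; within strains 0.721) and Riok3 (r = 0.849; within strains 0.432).

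Markers of cell types were summed in each library, as a measure of their RNA and not of cell number. The 15 amacrine markers summed to 352 to 437 cpm and the strain means ran from 370 ± 6.58 cpm in NZO/HlLtJ to 421 ± 17.4 cpm in WSB/EiJ. CAST/EiJ, lowest in Vip, Cck and Npy, was at 385 ± 13.1 cpm, inside that range. The 7 ganglion cell markers, led by Nefl, were lowest in CAST/EiJ at 150 ± 1.53 cpm and highest in C57BL/6J at 247 ± 13.8 cpm. CAST/EiJ was also the lowest strain in the sums of the Muller glia (814 ± 35.2 cpm), blood (12.3 ± 1.05 cpm) and optic nerve markers (8.46 ± 0.195 cpm), and the highest in that of the vascular markers (101 ± 3.95 cpm). Libraries of CAST/EiJ overlapped those of other strains in the Muller glia, blood and optic nerve sums, but lay apart in the ganglion cell and vascular sums. The part of these sums in the low peptide levels of CAST/EiJ was not tested. When the amacrine markers' mean log2 level was subtracted, Vip joined Cck past the limit on myopia (slope -0.074, q = 0.00371, limma). Over strain means neither passed in that setting (q = 0.331 for Vip and 0.312 for Cck, limma). The same level was subtracted from every gene of a library, so all slopes shifted alike, as that of Npy from -0.014 to -0.020. No share of all genes is given for this setting, so the gain of Vip is not read as a result about Vip.

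Markers of neighbouring tissue differed between libraries of 1 strain. The 7 lens markers, led by Cryaa, summed to between 4.96 and 1873 cpm, with the highest libraries in NOD/ShiLtJ and 129S1/Svlmj, and none of their comparisons of strain pairs was called. The 3 optic nerve markers, led by Mbp, summed to 8.24 to 54.1 cpm. Within strains Penk had r = 0.158 with the summed lens markers, 0.297 with those of the pigment epithelium, 0.599 with those of Muller glia and -0.650 with those of amacrine cells, and the part of these in its spread was not tested. These correlations were computed after the values had been seen, for 7 members against 11 marker lists, and with the other 7 lists Penk had r between -0.206 and 0.195. The bipolar markers, led by Trpm1, summed to 288 to 429 cpm and the horizontal cell markers, led by Calb1, to 22.6 to 31.6 cpm. Muller glia markers, led by Glul, summed to 774 to 1103 cpm, pigment epithelium markers to 76.7 to 143 cpm, vascular markers, led by Kdr, to 52.2 to 105 cpm, and blood markers, led by Hbb-bs, to 7.45 to 30.7 cpm. Rlbp1, on the lists of both Muller glia and pigment epithelium, made up 81.1% of the pigment epithelium sum, so that sum mainly measures a gene that Muller glia share. Without Rlbp1, left out once the data had been seen, the other 6 pigment epithelium markers, led by Ttr, summed to 5.22 to 47.0 cpm and had r = 0.371 with Penk within strains.

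Promoter sequences from RefSeq (GRCm38.p6) were found for 8 of the 10 members, not Penk or Crh, and the 250 bases upstream were searched on both strands for 4 motifs. The full cyclic AMP response element, TGACGTCA, was in 2 of 8, Sst and Cartpt, against 1.55% of 32851 promoters. Its 5-base core TGACG, which the full element contains, was in 6 of 8, against 17.8%. The TATA box letters TATAAA were in 2 of 8 (12.4% of all) and the E-box CACGTG in 2 of 8 (6.02% of all). Those windows end at the RefSeq start, and by the gene spans given above that of Cartpt lies wholly inside the gene and those of Tac1, Sst and Nts partly. By those spans both full elements, the cores of Sst and Cartpt, and 1 of 2 cores and the E-box of Tac1 lie inside the genes, as was looked up after the counts had been seen. In the bases before both the RefSeq start and the gene span, the full element was in 0 of 8 (1.33% of 22809 promoters). There the core was in 4 of 8 (13.4%), the TATA box letters in 2 of 8 (6.99%) and the E-box in 1 of 8 (4.47%). A match is a description of letters and not of a bound site. The reference is that of C57BL/6J, so the alleles of the other strains are not shown. Vip and Cck are printed because they had, with Penk, a range above 1 between strains, and Nts because it was detected in PWK/PhJ, with the core of the response element, the TATA box letters and the E-box on either strand in capitals. They span chr10:5638968-5639217 on the plus strand, chr9:121495695-121495944 on the minus strand and, for Nts, the 182 bases before both starts, chr10:102490487-102490668 on the minus strand.
Vip: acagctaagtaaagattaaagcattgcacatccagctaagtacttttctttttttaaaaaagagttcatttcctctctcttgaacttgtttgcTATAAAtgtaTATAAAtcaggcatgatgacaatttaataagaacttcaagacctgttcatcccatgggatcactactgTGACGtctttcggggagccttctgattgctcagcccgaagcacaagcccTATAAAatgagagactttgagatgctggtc
Cck: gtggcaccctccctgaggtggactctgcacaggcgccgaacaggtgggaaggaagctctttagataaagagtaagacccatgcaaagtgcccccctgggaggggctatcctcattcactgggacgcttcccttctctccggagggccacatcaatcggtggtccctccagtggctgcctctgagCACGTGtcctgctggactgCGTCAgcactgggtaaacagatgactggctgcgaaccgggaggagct
Nts: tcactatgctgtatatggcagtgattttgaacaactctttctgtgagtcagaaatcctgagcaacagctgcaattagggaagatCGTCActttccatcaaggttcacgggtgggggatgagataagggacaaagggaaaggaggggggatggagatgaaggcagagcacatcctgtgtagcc
In Vip the core TGACG lay 79 bases and a TATAAA 30 bases upstream of the start, and in Cck the core lay 47 bases upstream on the opposite strand.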

How the data were processed

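Total RNA from mouse retina was depleted of ribosomal RNA and sequenced as stranded libraries. The authors trimmed the reads, used STAR to align them to GRCm38, quantified genes by the Partek Flow E/M model, and deposited cpm values, read counts per 1000000 total reads of the library with 0.0001 added. Members were taken by gene symbol. The members and gene lists were chosen with earlier results of these data known. Tests used limma 3.58.1 in R 4.3.3 on log2(cpm + 1), fitted on 16400 genes whose mean reached 0.5 cpm and checked on simulated data. In the simulation of the regression, libraries of a strain shared nothing but the value of myopia. It could not show calls that arise because real libraries of a strain are alike. A moderated F-test compared the 8 strains, contrasts compared the 28 pairs, and regressions used strain mean myopia from the study's supplement, with higher values meaning more myopia, over libraries and over strain means. Storey q-values with a limit of 0.01 were computed over all genes tested, and pairs were adjusted by Benjamini-Hochberg over genes and pairs together with a limit of 0.05. Low values were whole multiples of 1 read, within 0.01 of a read, for 86.6% to 88.8% of values, so no count test was run. Each library counted as 1 biological replicate, as in the study's methods. By the study's methods the libraries were pooled for sequencing in randomized blocks, which the labels do not name, so no block was fitted. The labels give no sex, and library codes run in order of strain, so code order and strain cannot be told apart. Named genes were the members, their receptors, per list the 3 with the largest F and those associated with myopia, and the 2 genes most like each tested member. Alternatives changed the pseudocount, filter, scaling, adjustment, prior variance, covariate, phenotype scale, unit of replication, and the libraries and strains used.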

Additional observations from a re-analysis of the deposited data

How the results depend on the processing

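All 7 tested members differed between strains under every alternative that was run for this count and kept 7 in the test, each omitted library included. The count was 9 of 10 without the filter (Gcg did not pass), 6 of 6 without PWK/PhJ, where Sst fell below the filter, and 5 of 6 without the 3 wild-derived strains, where Tac1 was lost as well. With a mean of at least 5 cpm required, only Cartpt was tested and 1 member was counted. In the report 97.2% of all genes passed the same limit, and 82.1% passed with a Benjamini-Hochberg adjusted p under 0.05. Shares under the remaining alternatives are not given, so these counts say little about the members. The count over strain means was 0 under every alternative run for it, which were all planned ones but Xist as a covariate and strain as a random effect. Leaving out Sst, chosen after seeing the data, gave 6 of 6 members that differed between strains and 104 called pairs. The count of members associated with myopia over libraries, 1 in the report, was 2 with a pseudocount of 0.1, relative to the amacrine markers, with a Benjamini-Hochberg adjusted p under 0.05, without 129S1/Svlmj and without NZO/HlLtJ. It was 0 with a mean of at least 5 cpm, without CAST/EiJ, without the 3 wild-derived strains and with strain as a random effect. Leaving out 1 library gave 0 to 2. The share of all genes, in either direction, was 17.6% with the Benjamini-Hochberg limit and 0.713% with strain as a random effect. For the other settings it is not given, so these counts are not read as a result about the members. The call of Cck was lost without CAST/EiJ replicate 1 (q = 0.0112) or replicate 2 (q = 0.0114), and Vip was gained without any replicate of 129S1/Svlmj, NOD/ShiLtJ replicate 3 or NZO/HlLtJ replicate 2. The cause was not tested. Called pairs of strains, 122 in the report, were 19 of 28 with the higher filter, 71 of 126 without PWK/PhJ, 80 of 147 without CAST/EiJ and 24 of 60 without the 3 wild-derived strains. Fewer members or pairs were compared there, but the share called, 62.2% in the report, was also different: 67.9%, 56.3%, 54.4% and 40.0% in that order. Over all genes it was 35.5% in the report and 36.8%, 31.2%, 31.0% and 21.3% under the same settings. The number called was 114 to 130 when 1 library was left out.

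Slopes on myopia that turned, over libraries and over strain means alike, were these. Without NZO/HlLtJ the slope of Sst was -0.015. Without CAST/EiJ that of Npy was 0.0091 and that of Penk 0.039. Without the 3 wild-derived strains the slopes were 0.011 for Vip, 0.029 for Npy, 0.14 for Penk and 0.028 for Cck. None of these passed the limit, and the cause was not tested. The correlation over strain means without both NZO/HlLtJ and CAST/EiJ turned as well, for Vip (r = 0.078), Sst (r = -0.185) and Cartpt (r = 0.512). Penk passed without NZO/HlLtJ (slope -0.18, q = 0.00217). Median-ratio scaling shifted libraries by -0.072 to 0.068 on the log2 scale. No paired analysis was possible because the labels give no replicate numbers shared between strains. Levels under about 0.05 cpm, the value of 3 reads, could not be told from 0.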

Other observations

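Some genes of the lists had their highest level in 1 strain and were chosen here after their values were seen. Oprk1, the kappa opioid receptor, was at 1.56 ± 0.175 cpm (SD, n = 3) in PWK/PhJ and at 0.0786 ± 0.0135 cpm in A/J, the lowest strain. Cort, which encodes cortistatin, was at 0.886 ± 0.136 cpm in CAST/EiJ and at 0.0409 ± 0.0342 cpm in C57BL/6J. Both had means below the filter of 0.5 cpm and were not tested. Xist was at 906 to 1081 cpm in 4 libraries, 1 each of 129S1/Svlmj, C57BL/6J, PWK/PhJ and CAST/EiJ, and at 0.123 to 9.71 cpm in the other 20.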
